A study of Mus musculus with 11 samples.

Results

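Granule cell marker genes were examined in bulk RNA-seq of polyadenylated RNA from 11 libraries labelled as mouse cerebellar hemisphere. The 9 genes, Gabra6, Cbln1, Cbln3, Fat2, Neurod1, Etv1, Barhl1, Pax6 and Slc17a7, were taken by symbol as rows of the gene table. All 9 were present among the 22609 genes listed, and all 9 were among the 17557 genes that had at least 10 counts over all libraries and entered the tests. The control group (3 libraries) came from mice with floxed alleles. The methods of the study give both Nfasc and Ank3 as floxed in 1 place and either 1 or both in another. By the methods of the study these mice lacked Cre, whereas its results text writes their genotype with Pcp2-Cre. The NFKO libraries (3) were from Pcp2-Cre;NfascFx/Fx mice, the AnkGKO libraries (2) from Pcp2-Cre;AnkGFx/Fx mice, and the DKO libraries (3) from Pcp2-Cre;NfascFx/Fx;AnkGFx/Fx mice. AnkG is the product of Ank3, and NF186 is the neuronal neurofascin made from Nfasc. The Pcp2 promoter is known to drive Cre mainly in Purkinje cells. All mice were untreated littermates of mixed sex. The strain is given as C57BL/6J in 1 label and as a mixed background with 129 in another. Their age is given as postnatal day 30 in 1 label and postnatal day 32 in another, and all libraries carry the same batch label.

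Granule cells are the small excitatory neurons of the cerebellar cortex and by far its most numerous cell type. Their axons, the parallel fibers, release glutamate onto Purkinje cell dendrites, and granule cells themselves receive mossy fiber input and tonic inhibition through GABA-A receptors outside synapses. In mature granule cells Gabra6 encodes the alpha 6 subunit of those receptors, Slc17a7 the vesicular glutamate transporter VGLUT1, and Fat2 a giant cadherin of parallel fibers. Cbln1 and Cbln3 encode secreted cerebellins, which bind presynaptic neurexins at parallel fiber synapses on Purkinje cells. Neurod1, Etv1, Barhl1 and Pax6 encode transcription factors of the granule cell lineage, and of these Etv1 and Pax6 are also widely used elsewhere in the nervous system.

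Reads on genes totalled 38890851 to 55822361 per library, so that 3 counts, the floor used here, corresponded to 0.0546 to 0.0780 CPM (counts per 1000000 reads on genes, after scaling of library sizes by edgeR's TMM method). The floor and the counting intervals below cover counting error only. Control replicate 1 and NFKO replicate 1 stood apart from the other 9 libraries in the genes described here. The 9 genes summed to 735 CPM in control replicate 1 and to 630 in NFKO replicate 1, against 91.9 to 158 CPM in the other libraries. The labelled tissue was checked against its markers. Pcp2, the Purkinje cell gene that gives the Cre transgene its promoter, was at 26.3 and 28.3 CPM in the same pair of libraries, at 1.43 and 2.14 CPM in control and NFKO replicates 2, and at 0.0929 to 0.374 CPM in the other 7. Hox genes of caudal paralog groups, which in the nervous system are used at spinal levels, summed over 12 genes to between 395 and 615 CPM in every library. Gabra6 and Pcp2 were both at or below 0.174 CPM in the third control and NFKO libraries and in both AnkGKO libraries, which carry the same tissue label as the others.

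The targeted genes were read as whole-gene counts, which do not show which exons were lost. Ank3 was at 360.5, 375 and 353 CPM in control and at 407, 386 and 385 CPM in NFKO, against 156 and 200.1 CPM in AnkGKO and 185, 160 and 174 CPM in DKO. It fell in AnkGKO (log2 fold change -1.03, standard error 0.101, adjusted p = 0.00108 in edgeR) and in DKO (-1.07, standard error 0.0883, adjusted p = 0.000461 in edgeR). The libraries in which it fell held Pcp2 at no more than 0.374 CPM. Control and NFKO replicates 3, with Pcp2 at 0.167 and 0.0929 CPM, held Ank3 at 353 and 385 CPM. Which cells lost Ank3 transcript was not tested. Nfasc was at 718, 661 and 690 CPM in control, 701, 622 and 635 CPM in NFKO, 717 and 953 CPM in AnkGKO, and 559, 606 and 603 CPM in DKO. It was not called in NFKO (log2 fold change -0.08, adjusted p = 0.969 in edgeR), where its libraries overlapped the control libraries, nor in AnkGKO (0.28, adjusted p = 0.774) or DKO (-0.23, adjusted p = 0.619). The whole-gene count of Nfasc thus does not check the NFKO label.

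Gabra6 (chromosome 11, 42197264 to 42211910 on GRCm39) had the widest range of the 9 genes. Its level was 84.2, 4.41 and 0.0952 CPM in control replicates 1, 2 and 3, and 59.0, 4.24 and 0.0186 CPM in the NFKO replicates. It was 0.0413 and 0.0217 CPM in AnkGKO, and 1.61, 1.00 and 0.528 CPM in DKO. The lowest values rest on 1 count in NFKO replicate 3 and on 2 counts and 1 count in AnkGKO, which put 3 of 11 libraries at or under the floor. Within each of control and NFKO the first replicate was high, the second intermediate and the third near the floor, and the DKO libraries lay between the second and the third.

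Fat2 (chromosome 11, 55141435 to 55227483) followed a like course. It was measured at 143, 7.89 and 0.119 CPM in control, 121, 10.1 and 0.260 CPM in NFKO, 0.619 and 0.196 CPM in AnkGKO, and 6.23, 3.08 and 0.783 CPM in DKO. Cbln3 (chromosome 14, 56116370 to 56121849) was at 193, 12.2 and 1.88 CPM in control, 177, 15.2 and 1.75 CPM in NFKO, 1.53 and 1.78 CPM in AnkGKO, and 14.7, 4.23 and 2.84 CPM in DKO. Cbln3 did not approach the floor in any library, its lowest count being 74. Neurod1 (chromosome 2, 79282865 to 79287294) was at 53.9, 5.17 and 1.67 CPM in control, 41.3, 7.20 and 1.90 CPM in NFKO, 2.54 and 2.09 CPM in AnkGKO, and 3.71, 2.03 and 2.13 CPM in DKO. It is a proneural factor that granule cells keep into maturity, and outside control and NFKO its 5 libraries stayed between 2.03 and 3.71 CPM.

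Slc17a7 (chromosome 7, 44813305 to 44825644) was at 59.4, 6.79 and 0.357 CPM in control, 50.3, 4.95 and 0.557 CPM in NFKO, and 1.01 and 0.239 CPM in AnkGKO. In DKO it was at 2.47, 9.20 and 0.546 CPM, with DKO replicate 2 the highest, whereas Gabra6, Cbln3, Fat2 and Neurod1 were all highest in DKO replicate 1. The ratio of Slc17a7 to Gabra6 in CPM was 9.16 in DKO replicate 2, against 1.54 and 1.03 in the other DKO libraries. Slc17a7 is used by many excitatory neurons besides granule cells.

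The other 4 genes moved far less. Cbln1 (chromosome 8, 88195033 to 88199261) was at 126, 68.0 and 40.2 CPM in control, 105, 54.2 and 42.2 CPM in NFKO, 53.5 and 32.02 CPM in AnkGKO, and 40.8, 34.2 and 38.5 CPM in DKO. Pax6 (chromosome 2, 105499234 to 105530952) was at 14.3, 7.71 and 5.14 CPM in control, 14.1, 8.32 and 6.95 CPM in NFKO, 9.53 and 6.87 CPM in AnkGKO, and 9.61, 5.72 and 7.23 CPM in DKO. In both genes the first control and first NFKO libraries were the highest of all 11, and the remaining 9 libraries lay between 32.02 and 68.0 CPM for Cbln1 and between 5.14 and 9.61 CPM for Pax6.

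Barhl1 (chromosome 2, 28797691 to 28806680) was low throughout, at 2.81, 1.41 and 1.60 CPM in control, 2.66, 1.17 and 1.50 CPM in NFKO, 1.18 and 1.48 CPM in AnkGKO, and 1.66, 1.31 and 1.86 CPM in DKO. Etv1 (chromosome 12, 38828851 to 38920483) was at 57.6, 44.0 and 45.8 CPM in control, 58.8, 45.1 and 47.6 CPM in NFKO, 42.2 and 48.3 CPM in AnkGKO, and 40.8, 43.4 and 37.5 CPM in DKO. The DKO libraries of Etv1 lay below all control and all NFKO libraries.

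**Figure D1:**
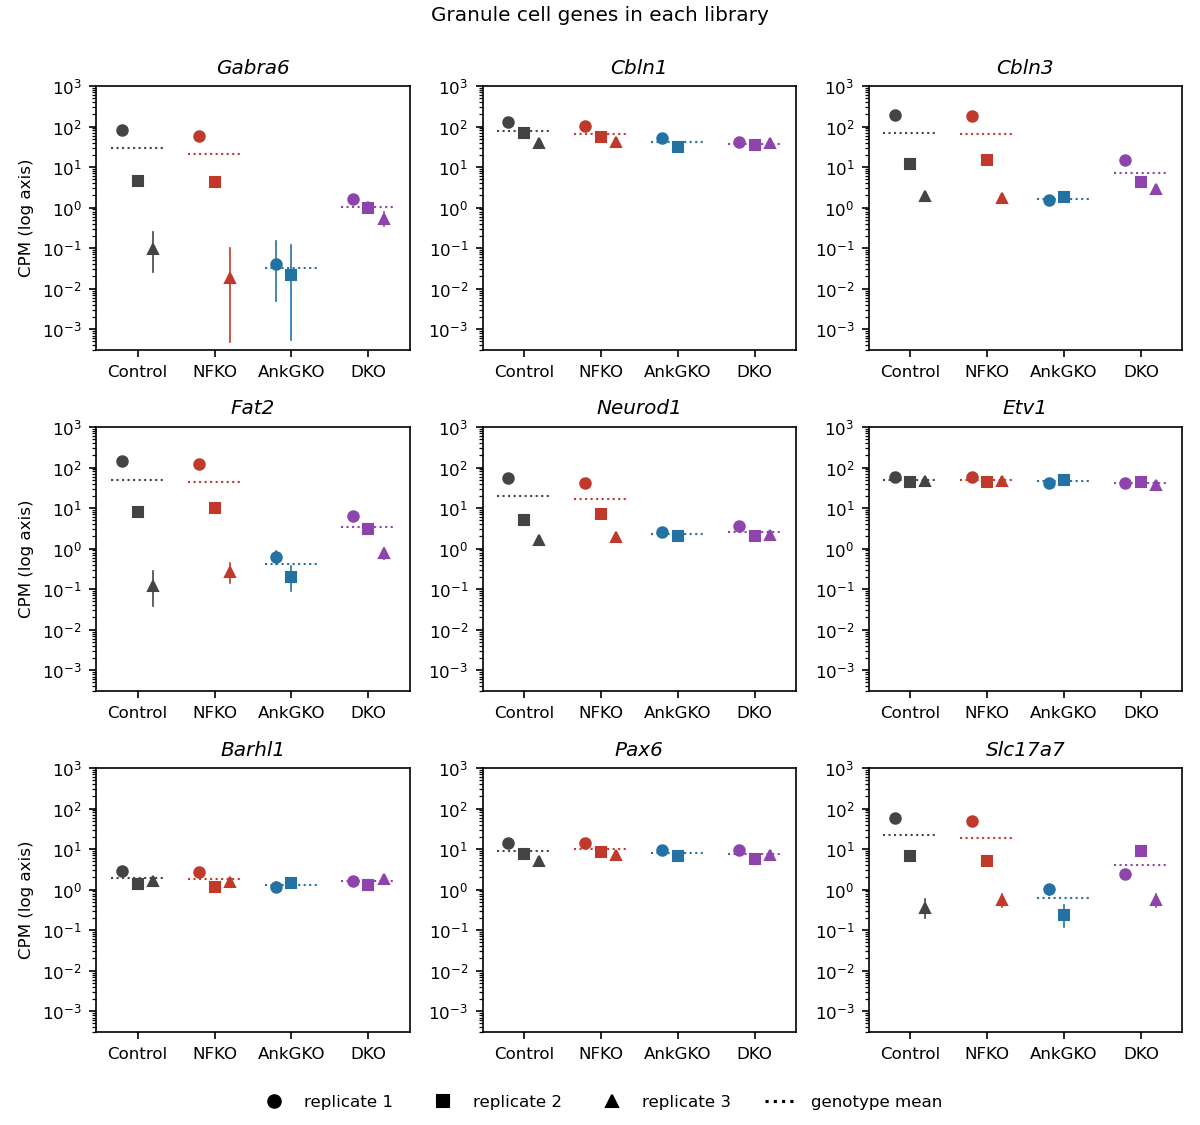
Level of each of the 9 granule cell genes (CPM, log axis) in every library, by genotype, with the replicate number as the marker shape, the 95% counting interval as a vertical line and the genotype mean as a dotted line. Gabra6, Cbln3, Fat2, Neurod1 and Slc17a7 spread over more than an order of magnitude within control and within NFKO, while Etv1 stayed between 37.5 and 58.8 CPM in all 11 libraries.

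Compared per kilobase of the canonical transcript, the order of the genotype means differed between control and AnkGKO. In control the mean levels were 27.6 ± 15.5 CPM per kb for Cbln1 (SD, n = 3), 14.2 ± 22.1 for Cbln3, 11.8 ± 18.9 for Gabra6 and 7.47 ± 1.12 for Etv1, followed by Neurod1 (7.42 ± 10.7), Slc17a7 (7.29 ± 10.7), Fat2 (3.45 ± 5.51), Pax6 (1.56 ± 0.815) and Barhl1 (0.528 ± 0.207). Only the step from Pax6 to Barhl1, the last of these, exceeded the larger SD of the pair of neighbours in control, and the same step was the only one to do so in NFKO. In AnkGKO the order was Cbln1 (15.1 ± 5.37 CPM per kb, SD, n = 2), Etv1 (6.89 ± 0.656), Pax6 (1.41 ± 0.324), Neurod1 (0.846 ± 0.117), Barhl1 (0.362 ± 0.0581), Cbln3 (0.340 ± 0.0370), Slc17a7 (0.205 ± 0.179), Fat2 (0.0279 ± 0.0205) and Gabra6 (0.0126 ± 0.00553). There each of the first 4 genes exceeded the next by more than the larger SD, while Barhl1 and Cbln3 did not differ by more than theirs. With all annotated exons in place of the canonical transcript, Neurod1 and Pax6 changed places in that order, as did Barhl1 and Cbln3, and in control Etv1 moved behind Neurod1 and Slc17a7. In DKO Cbln1 (13.4 ± 1.19 CPM per kb, SD, n = 3) and Etv1 (6.17 ± 0.453) again led, and Gabra6 (0.419 ± 0.217) and Fat2 (0.230 ± 0.187) came last.

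The spread between libraries of the same genotype was measured as the SD of log2 CPM within genotypes. It was 3.67 for Gabra6, the largest value among the 17557 genes tested, and 3.62 for Fat2, the 4th largest. Slc17a7 (2.84, rank 17), Cbln3 (2.60, rank 23) and Neurod1 (1.82, rank 75) were also among the widest. The median over all genes tested was 0.15. Cbln1 (0.61), Pax6 (0.54) and Barhl1 (0.45) lay above that median, and Etv1 (0.17) lay close to it. The ratio of the highest to the lowest control library was 884 for Gabra6 (95% counting interval 345 to 3246), 1204 for Fat2 (516 to 3710), 166 for Slc17a7 (101 to 298), 103 for Cbln3 (82.4 to 130) and 32.4 for Neurod1 (25.5 to 41.7). The same ratio was 3.14 for Cbln1 (2.97 to 3.32), 2.79 for Pax6 (2.38 to 3.28), 1.99 for Barhl1 (1.46 to 2.73) and 1.31 for Etv1 (1.23 to 1.39). All these differences between control libraries exceeded the counting error.

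**Figure D2:**
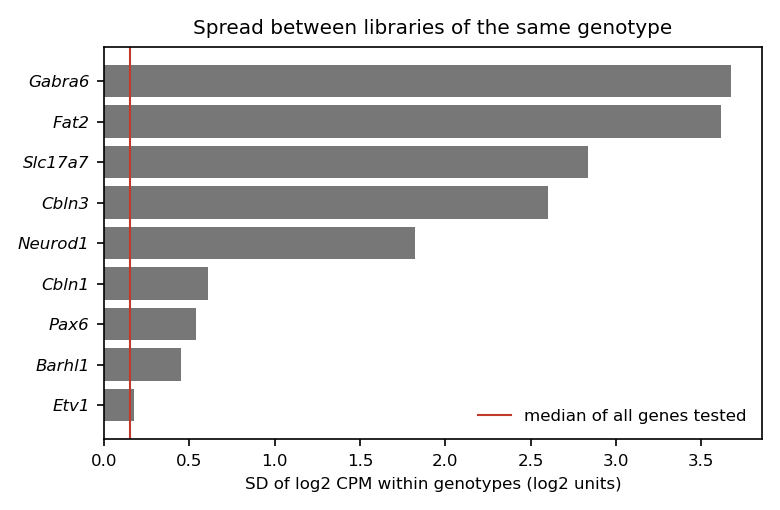
SD of log2 CPM between libraries of the same genotype for each granule cell gene (bars, log2 units), with the median of all genes tested as a vertical line at 0.15. The bars fall from 3.67 for Gabra6 to 0.17 for Etv1, and 5 of 9 genes exceed 1.8.

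Replicate 1 held the highest level in control for 9 of 9 genes and in NFKO for 9 of 9 genes. Among all genes tested, replicate 1 was highest in control for 34.7%, in NFKO for 33.4% and in both for 13.4%. In both genotypes 7 of 9 genes ranked replicate 1 over 2 and 2 over 3, against 3.28% of all genes. Etv1 and Barhl1 were the exceptions, being lowest in replicate 2. The size of the difference between replicates 1 and 3 was also alike in the 2 genotypes on the CPM scale. Control replicate 1 exceeded control replicate 3 by 192 CPM for Cbln3, 143 for Fat2, 85.9 for Cbln1, 84.1 for Gabra6, 59.1 for Slc17a7 and 52.3 for Neurod1. NFKO replicate 1 exceeded NFKO replicate 3 by 175, 121, 63.2, 59.0, 49.8 and 39.4 CPM for the same genes in that order. The differences were 11.7 and 11.1 CPM for Etv1, 9.18 and 7.17 for Pax6, and 1.21 and 1.15 for Barhl1. The NFKO difference was 0.701 (Gabra6) to 0.952 (Barhl1) times the control difference, so it was the smaller one for all 9 genes. Cbln1, whose ratio between libraries was small, thus had as large a difference in CPM as Gabra6, without correction for length, on top of 40.2 and 42.2 CPM in the third replicates.

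**Figure D3:**
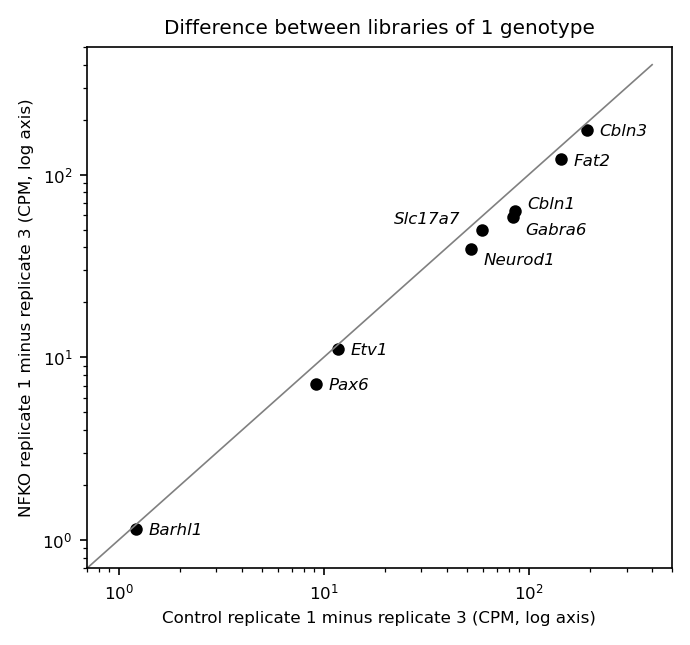
Difference in CPM between replicates 1 and 3 in control (horizontal, log axis) and in NFKO (vertical, log axis) for the 9 genes, with the line of equal values. The points run from Barhl1 at 1.21 and 1.15 CPM to Cbln3 at 192 and 175 CPM, and all lie below the line.

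The comparison of NFKO with control set Pcp2-Cre;NfascFx/Fx mice against mice with floxed alleles, for transcripts of granule cells. A gene was called when its adjusted p was under 0.05 and its log2 fold change reached 0.6 in size. None of the 9 genes was called in edgeR's quasi-likelihood test, which called 0.365% of all genes, and none in DESeq2, which called 0.906%. At an unadjusted p under 0.05 the counts were 0 of 9 in edgeR (7.69% of all genes) and 0 of 9 in DESeq2 (9.3%). For every one of the 9 genes the NFKO and control libraries overlapped, whereas the NFKO libraries lay above all control libraries for 7.42% of all genes and below them for 6.51%. The fitted log2 fold change was -0.48 for Gabra6 (standard error 1.99, 95% interval -5.16 to 4.20, adjusted p = 0.999 in edgeR with Benjamini-Hochberg adjustment). It was -0.20 for Fat2 (interval -4.91 to 4.52), -0.09 for Cbln3 (-4.32 to 4.13) and 0.04 for Etv1 (-0.23 to 0.31). The median of the 9 was -0.20, against -0.0050 over all genes tested. The direction rested on single libraries. Without control replicate 1 the log2 fold change of Gabra6 was 3.20 and that of Fat2 3.43, and without NFKO replicate 1 they were -3.80 and -3.29. Without both of these libraries they were -0.09 and 0.35, and none of the 9 genes was called.

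Over all genes, a control library and the NFKO library of the same number departed from their genotype means in like directions. A fit of those 6 libraries with replicate number as a block narrowed the intervals. The labels do not say what a number stands for, so the pairing and the narrower intervals rest on these same data. In this fit, added after seeing the data, the log2 fold change of Gabra6 was -0.35 (standard error 0.141, interval -0.67 to -0.03, unadjusted p = 0.0369 and adjusted p = 0.338 in edgeR). Gabra6 was lower in NFKO in 3 of 3 pairs, by 0.51, 0.06 and 2.36 on the log2 scale, the last resting on 4 counts against 1. Barhl1 was also lower in 3 of 3 pairs, by 0.08 to 0.26, and Etv1 was higher in 3 of 3 pairs, by 0.03 to 0.06. Of all genes, 16.2% were lower and 17% higher in NFKO in all 3 pairs, so such counts of 2 and 1 of 9 lie near the background. The log2 fold changes of Cbln3 (0.05), Fat2 (0.04), Neurod1 (0.04) and Etv1 (0.04) lay close to 0 in this fit, with Cbln1 at -0.17, Barhl1 at -0.14, Pax6 at 0.17 and Slc17a7 at -0.24. The 95% intervals of all 9 genes lay between -0.67 and 0.47. None of the 9 was called in this fit. It called 248 of all genes, against 64 in the fit of all 11 libraries without a block. These fits differ both in the block and in the libraries used.

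The comparison of AnkGKO with control did the same for Pcp2-Cre;AnkGFx/Fx mice. All 9 fitted log2 fold changes were below 0, with a median of -3.12 against -0.0051 over all genes tested, and none was called in edgeR, which called 0.165% of all genes. The 9 Purkinje cell markers were also all below 0 (median -0.95), and none of them was called in edgeR or DESeq2. The 5 cholinergic motor neuron genes were all above 0 (median 0.42), with none called in edgeR or DESeq2. None of the 9 granule cell genes had an unadjusted p under 0.05 in edgeR, against 5.39% of all genes. Gabra6 rested on 3461 counts in the control libraries together and 3 counts in AnkGKO, a pooled ratio of control to AnkGKO of 838 with a counting interval of 286 to 4064. Control replicate 1 carried 3238 of these counts, and without it, an alternative added after seeing the data, the ratio was 76.6 (25.9 to 374). Its fitted log2 fold change was -9.74 (standard error 4.53, 95% interval -20.38 to 0.89, adjusted p = 0.948 in edgeR). DESeq2 called Gabra6 (log2 fold change -9.87, standard error 2.36, adjusted p = 0.00493), the only one of the 9 called by either tool in any comparison, where it called 0.581% of all genes. It gave 5 of 9 genes an unadjusted p under 0.05, against 7.06% of all genes. Fat2 was at -6.92 (interval -15.26 to 1.41), Cbln3 at -5.38 (-11.92 to 1.16), Slc17a7 at -5.13 (-11.78 to 1.52) and Neurod1 at -3.12 (-7.37 to 1.12). Cbln1 (-0.87), Barhl1 (-0.54), Pax6 (-0.14) and Etv1 (-0.12) were closer to 0.

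The AnkGKO libraries lay below all control libraries for Gabra6 and Cbln3, 2 of 9 genes, against 12.6% of all genes, and above them for 0 of 9, against 11.7%. For Gabra6 control replicate 3 was above the AnkGKO libraries by a difference of 4 counts against 2 and 1. Without control replicate 1 the log2 fold changes were -6.06 for Gabra6, -3.30 for Fat2, -2.51 for Slc17a7, -2.10 for Cbln3 and -0.57 for Neurod1. Those of Cbln1 and Barhl1 were -0.34 and -0.18, and those of Pax6 (0.35) and Etv1 (0.01) turned positive. In these bulk libraries fewer granule cells, less RNA per cell and a smaller share of cerebellar cortex in the tissue cannot be told apart. Control replicate 3 and NFKO replicate 3, without AnkG knockout, held Gabra6 at 0.0952 and 0.0186 CPM.

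The comparison of DKO with control addressed the combined knockout. Again all 9 fitted log2 fold changes were below 0, with a median of -2.46 against -0.0006 over all genes tested, and 0 of 9 genes were called in edgeR, which called 0.0228% of all genes. Beside them, the 9 Purkinje cell markers were all below 0 (median -0.86). The 5 cholinergic motor neuron genes were all above 0 (median 0.78), and for 5 of 5 the DKO libraries lay above all control libraries, against 7.65% of all genes. Neither list held a gene called in edgeR or DESeq2, and their part in the granule cell values was not tested. Gabra6 was at -4.84 (standard error 2.48, 95% interval -10.66 to 0.99, adjusted p = 0.662 in edgeR), Fat2 at -3.93, Cbln3 at -3.26, Neurod1 at -2.95, Slc17a7 at -2.46 and Cbln1 at -1.04. Etv1 was the only gene of the 9 with an unadjusted p under 0.05 in edgeR (log2 fold change -0.28, standard error 0.122, unadjusted p = 0.0442, adjusted p = 0.629), a level reached by 7.77% of all genes. DESeq2 gave 6 of 9 an unadjusted p under 0.05, against 10.6% of all genes, and called none, against 0.251%. Etv1 was also the only one whose DKO libraries all lay below the control libraries, against 6.8% of all genes, and no gene of the 9 had all its DKO libraries above them, against 7.65%. Control replicate 1 decided the larger values. Without it the log2 fold change was -1.14 for Gabra6, -0.29 for Fat2, -0.39 for Neurod1, -0.52 for Cbln1 and -0.15 for Etv1, and it was 0.03 for Cbln3, 0.16 for Slc17a7, 0.22 for Pax6 and 0.10 for Barhl1. The 3 comparisons with control share the same control libraries.

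DKO was also compared with each single knockout. Against NFKO all 9 log2 fold changes were below 0 (median -2.21), none was called in edgeR, which called 0.615% of all genes, and Etv1 had the smallest p (log2 fold change -0.32, standard error 0.122, unadjusted p = 0.0243, adjusted p = 0.235). It was the only one of the 9 with an unadjusted p under 0.05 in edgeR, against 16.2% of all genes. DESeq2 called none, against 2.38%, and gave 3 of 9 an unadjusted p under 0.05, against 19.7%. The DKO libraries lay below all NFKO libraries for Cbln1 and Etv1, 2 of 9 genes, against 10% of all genes, and above them for 0 of 9, against 9.32%. NFKO replicate 1 was the highest NFKO library for 9 of 9 genes. For Gabra6, Cbln3, Fat2 and Neurod1 the other NFKO libraries lay on either side of all DKO libraries. The 9 Purkinje cell markers were all below 0 (median -0.87), with 1 called in DESeq2 and 0 in edgeR. The 5 cholinergic motor neuron genes were all above 0 (median 0.52). For 4 of 5 all DKO libraries lay above NFKO, against 9.32% of all genes. The part of these lists was not tested. Against AnkGKO the DKO libraries were all higher for Gabra6, Cbln3 and Fat2, 3 of 9 genes, against 12.4% of all genes, and all lower for 0 of 9, against 11.3%. The pooled ratio of DKO to AnkGKO was 31.6 for Gabra6 (counting interval 10.6 to 155, from 141 counts and 3 counts), and the fitted log2 fold changes were 2.12 for Cbln3 (interval -4.03 to 8.27) and 3.00 for Fat2 (-5.40 to 11.39). None of the 9 was called against AnkGKO in edgeR, which called 0.171% of all genes, and 0 of 9 had an unadjusted p under 0.05, against 8.48%. DESeq2 called none, against 0.564%, and gave 1 of 9 an unadjusted p under 0.05, against 11%.

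The interaction of the knockouts tests whether the effect of losing both genes departs from the sum of the separate effects. None of the 9 was called in it by edgeR, which called 0.53% of all genes, and adjusted p-values ran from 0.772 to 0.994. No gene of the 9 had an unadjusted p under 0.05 in edgeR (10.3% of all genes) or in DESeq2 (12.8%), and DESeq2 called none of them, against 1.81%.

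**Figure D4:**
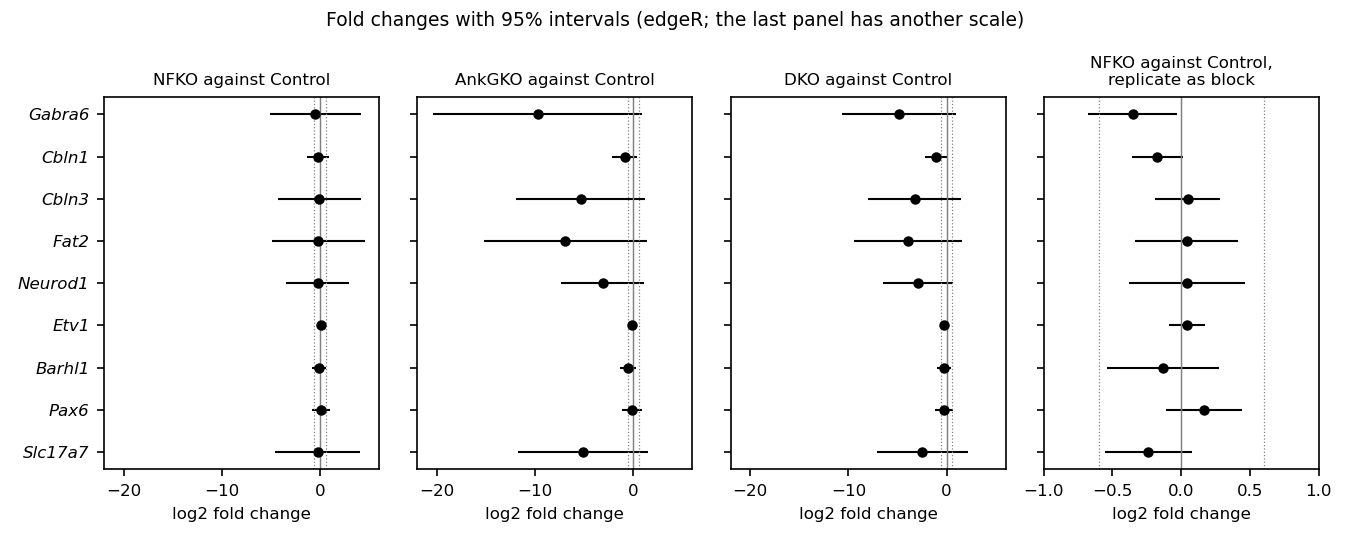
Log2 fold change of each granule cell gene against control with its 95% interval derived from the edgeR test. Panels show NFKO, AnkGKO and DKO in 1 fit of all 11 libraries, and NFKO in a fit of 6 libraries with replicate number as a block. Dotted lines mark 0.6 in either direction, and the last panel has a narrower axis, where all intervals lie between -0.67 and 0.47.

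Genes that work with the 9 were counted by list. Of 11 other granule cell genes, none was called against control in NFKO, AnkGKO or DKO, by edgeR (which called 0.365%, 0.165% and 0.0228% of all genes) or by DESeq2, so a count of 0 lies at the background. At an unadjusted p under 0.05 the edgeR counts were 0, 1 and 2 of 11, against 7.69%, 5.39% and 7.77% of all genes. Those of DESeq2 were 0, 2 and 3 of 11, against 9.3%, 7.06% and 10.6%. Their median log2 fold change was -0.10 in NFKO, -0.53 in AnkGKO and -0.72 in DKO. Gabrd, which encodes the delta subunit that pairs with alpha 6 outside synapses, was measured in control at 25.5, 3.76 and 1.76 CPM, and in NFKO at 17.4, 3.10 and 1.24 CPM, with the same ranking of libraries as Gabra6. It was at 1.98 and 1.28 CPM in AnkGKO and 2.36, 1.73 and 1.67 CPM in DKO.

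None of 6 genes of the cerebellin family and its partners (Cbln2, Cbln4, Grid1 and 3 neurexin genes) was called against control in edgeR or DESeq2, with 0 of 6 at an unadjusted p under 0.05 in any of the 3 comparisons in either tool. At the shares of all genes called, a count of 0 says little about so short a list. It summed to between 766 and 912 CPM. Slc17a6, which encodes VGLUT2, the transporter of most brainstem and spinal excitatory neurons, was at 225 to 286 CPM in every library. Per kilobase it was at 50.6 to 64.2 CPM, above the highest Slc17a7 library (19.5 CPM per kb), and its log2 fold changes against control were -0.01 in NFKO (95% interval -0.25 to 0.22), -0.07 in AnkGKO (-0.33 to 0.19) and -0.05 in DKO (-0.28 to 0.18). Slc17a8, which encodes VGLUT3, lay below control in NFKO (log2 fold change -0.51, unadjusted p = 0.0181, adjusted p = 0.496 in edgeR) and in AnkGKO (-0.74, unadjusted p = 0.00475, adjusted p = 0.420 in edgeR) and was not called. In DKO its mean was 2.75 CPM against 3.15 CPM in control, and the libraries overlapped. In the interaction DESeq2 called 1 of these 2 transporter genes, against 1.81% of all genes, and edgeR called 0. Of 6 granule cell progenitor genes, Atoh1 had at most 3 counts in any library and was not tested, and none of the other 5 was called against control in edgeR. Of these 5, 2 had a log2 fold change above 0 and 3 below in NFKO, 4 above and 1 below in AnkGKO, and 2 above and 3 below in DKO. In DKO they included Mycn, a driver of progenitor division (-0.62, unadjusted p = 0.00402, adjusted p = 0.562 in edgeR), and the hedgehog target Gli1 (0.29, unadjusted p = 0.205 in edgeR).

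Likeness of profiles was described as the root mean square difference of centred log2 CPM over the 11 libraries, among 13901 genes with a mean of at least 1 CPM. The gene outside the 9 closest to Gabra6 (1.34), Cbln3 (0.84), Fat2 (1.29) and Slc17a7 (1.20) was in each case Pcp2. For Neurod1 it was Car8 (0.23), another Purkinje cell gene, and for Cbln1 it was Calb1 (0.14), which encodes the Purkinje cell protein calbindin. Barhl1 was closest to Psg16 (0.16) and Etv1 to Btbd3 (0.078), in profiles with little spread. Among pairs of the 9 genes, Etv1 and Barhl1 (0.30) were the nearest, and Gabra6 lay closer to Fat2 (0.79) than to the other 7, the farthest being Etv1 (3.45).

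Markers of other cell types were measured beside these values. The 9 Purkinje cell genes summed to 1069 CPM in control replicate 1 and 1179 CPM in NFKO replicate 1, and to between 249 and 360.5 CPM elsewhere. The Bergmann glia genes (3) summed to 258 to 458 CPM, the cerebellar regional genes En1 and En2 to 6.58 to 29.2 CPM, and the unipolar brush cell genes Eomes and Lmx1a to 0.0476 to 3.87 CPM. Each of these lists was highest in control and NFKO replicates 1, at 430 and 458, 29.2 and 24.9, and 3.87 and 1.40 CPM. Elsewhere they reached at most 322, 9.80 and 0.262 CPM. The cholinergic motor neuron genes (5) summed to 170 to 287 CPM in control, 199 to 367 CPM in NFKO, 214 and 463 CPM in AnkGKO and 377 to 405 CPM in DKO. The dorsal horn genes (5) summed to 13.0 to 23.4 CPM and the forebrain genes (6) to 3.53 to 5.31 CPM. The part of these cell types in the differences between libraries was not tested.

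**Figure D5:**
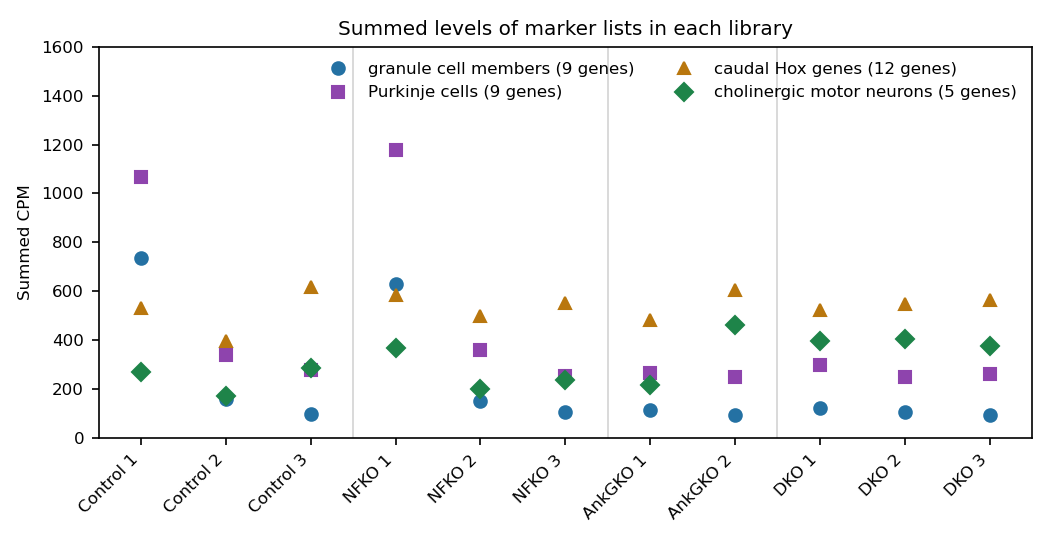
Summed CPM of 4 marker lists in each library, with vertical lines between genotypes. The 9 granule cell genes and the 9 Purkinje cell genes are highest in control replicate 1 and NFKO replicate 1, while the 12 caudal Hox genes lie between 395 and 615 CPM in all 11 libraries.

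Promoter windows of 250 bases before the annotated start were read from RefSeq for 8 of the 9 genes, with 11 starts, on GRCm38.p6, and each was found unchanged in GRCm39. They were searched on both strands for letters bound by NEUROD1, ETV1 and BARHL1 and by nuclear factor I (NFI). NFI is a family known to act on Gabra6 in maturing granule cells. Sites of PAX6 were not searched. The NFI half-site TTGGC, added after the windows had been read, occurred in 5 of the 11 windows, near the share of 41.5% among 32851 promoter windows of this length. The E-box CAGATG, a NEUROD1 site, occurred in 1 of 11 windows (Etv1) against 14.4%, the ETS core CCGGAA in 1 of 11 (Barhl1) against 12.0%, and TAAACG, a BARHL1 site, in 0 of 11 against 2.76%. No matches overlapped. Windows of Gabra6 and Cbln3 are shown as examples of genes with a wide range between libraries, and that of Barhl1 as one with a narrow range. Capitals mark the NFI half-site or its complement, and all 3 lie on the minus strand and are written 5′ to 3′.
Gabra6, chr11:42321073-42321322: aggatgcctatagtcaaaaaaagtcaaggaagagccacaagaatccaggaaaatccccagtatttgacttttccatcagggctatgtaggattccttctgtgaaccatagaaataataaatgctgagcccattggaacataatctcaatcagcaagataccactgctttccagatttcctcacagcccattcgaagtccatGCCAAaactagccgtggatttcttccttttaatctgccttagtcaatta
Cbln3, chr14:55884257-55884506: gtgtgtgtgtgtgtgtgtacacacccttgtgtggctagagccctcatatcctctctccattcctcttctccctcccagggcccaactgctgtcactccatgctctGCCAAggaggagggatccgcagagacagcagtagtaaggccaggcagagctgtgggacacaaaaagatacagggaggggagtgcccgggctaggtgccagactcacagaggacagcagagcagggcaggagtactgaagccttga
Barhl1, chr2:28916669-28916918: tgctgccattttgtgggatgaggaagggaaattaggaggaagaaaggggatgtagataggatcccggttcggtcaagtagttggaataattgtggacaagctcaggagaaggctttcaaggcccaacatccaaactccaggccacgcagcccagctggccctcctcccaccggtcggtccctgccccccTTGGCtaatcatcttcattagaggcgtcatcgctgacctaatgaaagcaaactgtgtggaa
The first capital lies 49 bases before the start in Gabra6, 145 in Cbln3 and 61 in Barhl1.

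Shared sequence limits some of the counts. By the annotation, exons of Pax6 overlap Elp4 on the opposite strand over 21.1% of their length, those of Cbln1 overlap the noncoding gene Gm19872 on the opposite strand over 19.3%, and those of Neurod1 overlap Cerkl on the same strand over 6.71%. The libraries were made with a kit that marks strand, and whether the counting used strand is not given in the sources used here, so reads in these stretches are uncertain.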

How the data were processed

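The authors made polyadenylated RNA libraries from tissue labelled cerebellar hemisphere, trimmed the reads with Trimmomatic 0.39, aligned them to GRCm39 with STAR 2.7.11a and deposited raw counts per gene for 11 libraries. The labels describe single-end reads and the methods read pairs. A second deposited table holds normalized signal, the counts divided by size factors of 0.815 to 1.16, which DESeq2 gives from the raw counts. The 5 summary lines (42.7% to 43.8% of all reads counted) were left out.

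Counts were fitted with edgeR 4.0.16 in R 4.3.3 (TMM, robust quasi-likelihood, 1 fit over 4 genotypes, 17557 genes with at least 10 counts), with Benjamini-Hochberg adjustment over all genes, two-sided. Genes were called where the adjusted p was below 0.05 and the log2 fold change was 0.6 or more in size. CPM are TMM-scaled, and log2 CPM used a prior count of 2. Counting intervals are exact 95% intervals. For edgeR, standard errors were derived from the fold change and the F statistic of its test. The 95% intervals were built from these with the t distribution. Positions came from GENCODE vM39. The fits were tested on simulated data. Replicate numbers come from the labels. Deviations of same-numbered control and NFKO libraries from their genotype means correlated at 0.36, 0.31 and 0.17 over all genes (across genes, which are not independent). These numbers were therefore taken as pairs, though the labels do not say what a number stands for. Same-numbered NFKO and DKO libraries correlated at 0.050, 0.35 and 0.18 and were not taken as pairs.

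Named genes are the 9 members, genes of the partner and marker lists, and for each member the genes with the nearest profiles. Members and lists were chosen with earlier results of these data known. Some genes of these lists are not reported here, and counts and sums are given without them. Alternatives were DESeq2 1.42.0 with a local dispersion fit, its size factors in edgeR, other filters, only the libraries compared, the replicate block, no fold-change threshold and leaving out each library. Ppp1r17 was listed under its synonym Gsbs. The study gives 3 AnkGKO mice, and 2 libraries were analysed here.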

Additional observations from a re-analysis of the deposited data

How the results depend on the processing

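The count of called granule cell genes stayed at 0 under every alternative run, in all 6 comparisons, except that DESeq2 called 1 gene (Gabra6) in AnkGKO against control. Of 171 fold changes under alternatives other than leaving out libraries, 167 kept their direction and side of the threshold. The 3 that reversed were Cbln3 (0.046), Fat2 (0.040) and Neurod1 (0.042) in NFKO against control, with the replicate block and only the libraries compared, a fit added after seeing the data. The replicate block over all libraries gave Gabra6 a log2 fold change of -0.38 in NFKO, -9.88 in AnkGKO and -2.91 in DKO, and the block changed no call among the 9 genes.

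Leaving out 1 library, or (added after seeing the data) control and NFKO replicates 1 together, reversed 40 of 324 fold changes. In NFKO against control the log2 fold changes ranged from -3.80 to 3.20 for Gabra6, -0.70 to 0.31 for Cbln1, -3.03 to 3.19 for Cbln3, -3.29 to 3.43 for Fat2, -2.15 to 2.29 for Neurod1, -0.083 to 0.17 for Etv1, -0.53 to 0.25 for Barhl1, -0.24 to 0.61 for Pax6 and -3.01 to 2.37 for Slc17a7, from without NFKO replicate 1 to without control replicate 1. In AnkGKO they ranged from -0.22 to 0.01 for Etv1 and -0.42 to 0.35 for Pax6, and in DKO from -4.30 to 0.03 for Cbln3, -0.45 to 0.10 for Barhl1, -0.55 to 0.22 for Pax6 and -3.91 to 0.16 for Slc17a7. Without both replicates 1, the reversed values were 0.26, 0.35 and 0.41 for Cbln3, Fat2 and Neurod1 in NFKO, 0.012 and 0.35 for Etv1 and Pax6 in AnkGKO, and 0.040, 0.10, 0.22 and 0.18 for Cbln3, Barhl1, Pax6 and Slc17a7 in DKO.

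Over all genes, DESeq2 called 159 genes in NFKO, 102 in AnkGKO and 44 in DKO against control, 418 in DKO against NFKO, 99 in DKO against AnkGKO and 318 in the interaction, against 64, 29, 4, 108, 30 and 93 in edgeR. With only the libraries compared, DKO against AnkGKO gave 11. With the block on 6 libraries NFKO gave 248. Leaving out 1 library gave 40 to 71 in NFKO, 18 to 35 in AnkGKO, 4 to 8 in DKO, 68 to 162 and 12 to 40 in DKO against NFKO and AnkGKO, and 52 to 102 in the interaction. The cause of these shifts was not tested. Where Gabra6 had 1 to 4 counts, depth limits its value to the counting interval given.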

Other observations

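In libraries with few granule cell reads the 9 genes did not keep 1 ratio in CPM, which is not corrected for length. Cbln3 stood to Gabra6 in a ratio of 2.30 in control replicate 1, 3.00 in NFKO replicate 1, 2.76 in control replicate 2 and 3.59 in NFKO replicate 2, and between 4.21 and 94.0 in the other 7 libraries. Fat2 stood to Cbln3 in a ratio of 0.649 to 0.741 in those 4 libraries and in DKO replicate 2 (0.729), and of 0.0633 to 0.423 in the other 6. Etv1 stood to Gabra6 in a ratio of 0.684 in control replicate 1 and 0.996 in NFKO replicate 1, and of 71.0 in DKO replicate 3 and 482 in control replicate 3. The ratio of Pcp2 to Cbln3 was 0.118 to 0.160 in control and NFKO replicates 1 and 2. It was 0.0532 to 0.0976 in control and NFKO replicates 3, in both AnkGKO libraries and in DKO replicates 2 and 3. The lowest ratio was 0.0143 in DKO replicate 1, where Cbln3 was at 14.7 CPM and Pcp2 at 0.210 CPM, from 9 counts. The ratios of the libraries with 1 to 4 counts of Gabra6 carry wide counting error.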
